A study of Mus musculus with 2 samples.

Results

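The epidermal differentiation complex is a cluster of genes on mouse chromosome 3 whose products build the outer barrier of the skin. Its members were taken as the protein-coding genes between 90.3 and 94.1 Mb of chromosome 3 (build mm10) that belong to the S100a, Sprr, Lce, Flg, Tchh, Hrnr, Rptn, Ivl, Lor, Crnn, Crct1, Lelp1, Kprp and Pglyrp3/4 families. This gave 64 genes. Of the 193 peaks in that window, 159 overlapped a member or lay nearest to one, out of 84591 nuclear peaks in the whole table. A peak is a stretch of open chromatin found by ATAC-seq, in which a transposase cuts accessible DNA.

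Each library was made from 50000 sorted mouse epidermal cells of the basal layer. The gate kept cells with much α6 integrin and a YFP, GFP or RFP signal from K14 tracing, and left out CD34+ and Lrig1+ cells. The control library carried the genotype label WT, and the ablation library the label Basal lineage ablation. The labels used here name no strain, age, time after ablation, way of ablating cells or pooling of animals. There was 1 library per group, so no spread between animals could be measured, no difference was tested, and the condition cannot be told apart from any other difference between the libraries. Each interval printed is a 95% interval (exact, after Clopper and Pearson) from the recovered reads, and covers counting error only.

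In the skin, keratinocytes divide in the basal layer and switch on the genes of this complex as they move outwards. Involucrin, loricrin, the Sprr and the Lce proteins are crosslinked by transglutaminases into the cornified envelope that replaces the cell membrane. Filaggrin and its relatives pack keratin filaments or join the envelope, and the S100 proteins are small calcium-binding proteins that also act as alarm signals. Expression of most envelope genes belongs to suprabasal cells, whereas the cells profiled here were sorted from the basal layer.

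The promoters of the complex fell into a group that lay under peaks and a larger group that did not. RefSeq promoters (GRCm38.p6, the assembly behind mm10), which reach from 250 bases before to 50 after the start, were matched by gene for 56 members. Of these, 18 (32.1%) lay under a peak in the table, against 60.7% of 17492 protein-coding genes. The S100 genes accounted for 9 of the 18, out of 12 with a promoter in the table. Among the Lce genes 3 of 20 promoters lay under a peak, among the Sprr genes 3 of 14, among the S100-fused genes 2 of 7, and of the 3 other envelope precursors Ivl alone. S100-fused genes, which join an S100 domain to long repeats, are Flg, Flg2, Hrnr, Rptn, Tchh, Tchhl1 and Crnn. Which peaks the authors selected is not stated, so a promoter without a peak here is not shown to be closed.

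Promoter sequences are printed for 6 members chosen as examples, Ivl and Crnn with lower and Sprr1b with a higher promoter peak in ablation, Sprr1a and S100a11 with promoter peaks close to even, and Lor, whose peak lies in the gene body. They are RefSeq sequences of GRCm38.p6, the 250 bases before the start, read along the gene's own strand. The positions are chr3:92573736-92573985 (minus strand) for Ivl, chr3:92083143-92083392 (minus) for Lor, chr3:92485882-92486131 (minus) for Sprr1a, chr3:92438780-92439029 (minus) for Sprr1b, chr3:93144539-93144788 (plus) for Crnn and chr3:93520246-93520495 (plus) for S100a11. Capitals mark matches to the TATA box, AP-1, GC box and CACCC box motifs.
Ivl: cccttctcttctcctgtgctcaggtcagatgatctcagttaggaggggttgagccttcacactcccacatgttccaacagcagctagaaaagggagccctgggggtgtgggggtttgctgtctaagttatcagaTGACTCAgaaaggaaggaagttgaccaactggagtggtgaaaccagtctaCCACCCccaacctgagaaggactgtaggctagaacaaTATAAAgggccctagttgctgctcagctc
Lor: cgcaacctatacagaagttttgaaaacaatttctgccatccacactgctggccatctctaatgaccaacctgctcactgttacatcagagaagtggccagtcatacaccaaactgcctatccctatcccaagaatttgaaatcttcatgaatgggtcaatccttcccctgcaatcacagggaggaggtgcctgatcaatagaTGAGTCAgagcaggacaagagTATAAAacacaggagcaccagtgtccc
Sprr1a: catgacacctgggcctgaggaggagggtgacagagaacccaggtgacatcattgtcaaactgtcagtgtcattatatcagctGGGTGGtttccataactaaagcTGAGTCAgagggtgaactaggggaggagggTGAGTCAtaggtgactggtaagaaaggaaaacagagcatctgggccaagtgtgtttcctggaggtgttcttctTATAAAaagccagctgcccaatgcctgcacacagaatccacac
Sprr1b: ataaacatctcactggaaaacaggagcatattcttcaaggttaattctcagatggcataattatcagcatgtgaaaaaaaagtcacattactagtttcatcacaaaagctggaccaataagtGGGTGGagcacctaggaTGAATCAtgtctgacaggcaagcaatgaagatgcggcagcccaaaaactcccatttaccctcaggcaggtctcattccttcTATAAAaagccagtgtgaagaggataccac
Crnn: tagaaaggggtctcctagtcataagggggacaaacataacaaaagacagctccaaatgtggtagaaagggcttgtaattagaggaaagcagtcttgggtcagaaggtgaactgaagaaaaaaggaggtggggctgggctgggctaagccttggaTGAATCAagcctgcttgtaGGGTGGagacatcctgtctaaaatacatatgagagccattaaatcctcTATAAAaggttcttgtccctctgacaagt
S100a11: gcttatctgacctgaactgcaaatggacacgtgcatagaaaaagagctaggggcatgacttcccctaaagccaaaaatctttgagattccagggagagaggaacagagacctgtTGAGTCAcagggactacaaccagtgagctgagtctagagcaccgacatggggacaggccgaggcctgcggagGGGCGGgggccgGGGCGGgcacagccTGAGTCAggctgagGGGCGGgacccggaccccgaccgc

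The letters show how these starts differ in kind. Ivl, Lor, Sprr1b and Crnn each carry TATAAA between 27 and 30 bases before the start, and Sprr1a carries it 43 bases before. All 5 also hold a match to TGANTCA, the site bound by AP-1 factors, at 116 bases before the start in Ivl (TGACTCA), 48 in Lor, 111 in Sprr1b, 96 in Crnn, and at both 146 and 116 in Sprr1a. S100a11 has no TATAAA in these 250 bases, but has GGGCGG, the GC box bound by Sp1 and Klf factors, at 64, 52 and 24 bases before the start, and TGAGTCA at 136 and 38. The printed promoters do not stand for all that differ. Lce6a (0.608-fold, 0.442 to 0.829) and Tchhl1 (0.721-fold, 0.592 to 0.875) also had lower promoter peaks. In its 250 bases Lce6a has no match to any motif searched, and Tchhl1 has an AP-1 match at 87 but no TATAAA.

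Over all 60 RefSeq promoters of the complex, which are 300 bases long, AP-1 letters (TGANTCA, both strands) stood in 19 (31.7%), against 6.99% of 21263 promoters of protein-coding genes. TATAAA on the gene's strand stood in 23 (38.3%, against 8.26%), and GGGCGG on either strand in 5 (8.33%, against 46.2%). By group, AP-1 letters stood in 9 of 14 Sprr promoters, 5 of 7 S100-fused promoters and 2 of 3 of the other envelope precursors, but in 3 of 16 S100 promoters and 0 of 20 Lce promoters. Shares for CCACCC (33.3% against 33.6%) and for the C/EBP letters TTGCNNAA (10% against 10.2%) were close to those of all promoters. Grainyhead letters, AACCNGTT, stood in 3 of 60 (5% against 1.95%). No matches of different motifs shared bases (0 pairs). Sprr and Lce genes arose by duplication, so their promoters are not independent, and a match of letters is not a bound site.

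**Figure D1:**
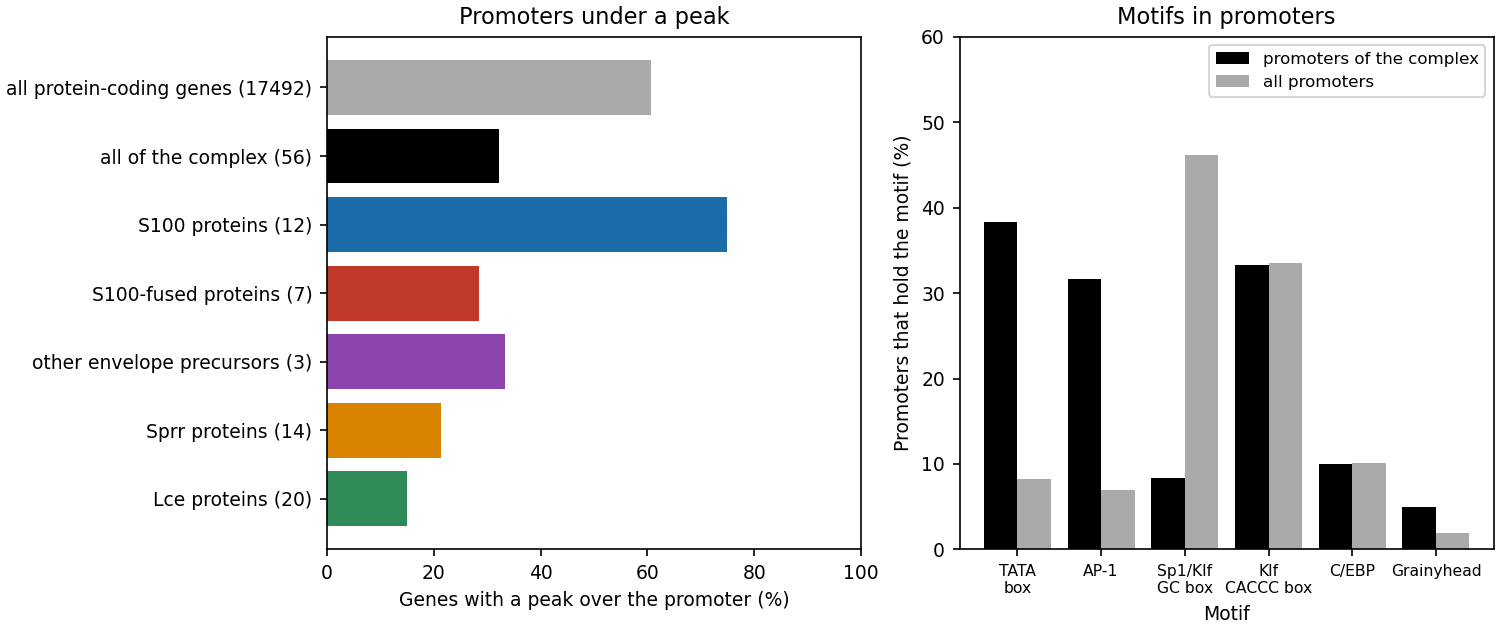
Left, the percentage of genes whose promoter lies under a peak, for all protein-coding genes, the whole complex and its gene groups, with the number of genes in brackets. Right, the percentage of promoters that hold each motif, in black for the 60 promoters of the complex and in grey for all promoters. The S100 bar is the longest on the left at 75%, and TATA box and AP-1 bars are higher and the GC box bar lower in the complex on the right.

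The window held 193 peaks in 3.8 Mb, where the median window of that length over the genome held 103. Within it the peaks were uneven. No peak lay in the 722.3 kb between 91290952 and 92013205, between S100a7l2 and Pglyrp3. The 132.2 kb between 93181163 and 93313357 also held none, and both filaggrin genes, Flg and Flg2, lie in that gap. Another empty stretch of 120.4 kb, from 92692064 to 92812503, spans Lce1e, Lce1f, Lce1g, Lce1h, Lce1i, Lce1j and Lce1k. In all, 19 members had no peak assigned, of which 11 are Lce genes, 5 are Sprr2 genes, and the rest are Flg, S100a2 and S100a5.

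Signal is given in normalized reads, the deposited unit, in which 1 read counts 0.706 in control and 0.907 in ablation. Peaks were retained for ratios when their mean signal reached 13.96 normalized reads, the 10th percentile of all nuclear peaks. Of the 159 peaks of the complex 142 were retained, and they were assigned to 43 of the 64 genes, 13 of which rest on 1 peak. Lce1d and Lce3d had peaks below the minimum only. The retained peaks held 31716 reads in control and 21969 in ablation, with medians of 80 and 60.5 reads per peak. A median retained peak was 522.5 bp long, against 595 bp over the table.

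Most of the complex differed little between the libraries. In such pooled cells, fewer cells of a type and less accessibility per cell cannot be told apart. The median log2 ratio of ablation to control was -0.13 over its 142 retained peaks and -0.01 over all 76147 retained peaks, and 54 of the 142 (38.0%) lay above 0, against 48.7% of all. At the level of genes, where the signal of a gene's retained peaks is summed, the median was -0.09 for 43 members and -0.07 for 16459 protein-coding genes. At least 2-fold higher in ablation were 4 of the 142 peaks (2.82%), where 4.48% of all retained peaks were. At least 2-fold lower were 5 (3.52%), against 1.88%. These calls use the log2 ratio with a pseudocount of 1 normalized read, so a Kprp peak that went from 25.4 to 12.7 (36 and 14 reads) lay just inside, at -0.95. That split of 4 higher and 5 lower became 6 and 4 when libraries were scaled to reads in nuclear peaks, and 3 and 12 when scaled to reads over the whole table. The ratio was within 1.5-fold in 78.2% of the peaks of the complex and in 79.5% of all peaks.

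The ratio of all peaks falls with signal, and the median of the complex was slightly lower in its stronger peaks. Under the median signal of all retained peaks, 66.1 normalized reads, the median log2 ratio was -0.09 for 79 peaks of the complex and 0.13 for all peaks. At or over it the values were -0.16 for 63 peaks and -0.08. The complex thus lay lower than all peaks in both strata, and these differences were not tested. Of the weaker peaks 3 were at least 2-fold higher and 5 lower, against 8.33% and 3.36% of all weaker peaks. Of the stronger peaks 1 was higher and 0 were lower, against 0.63% and 0.397%.

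**Figure D2:**
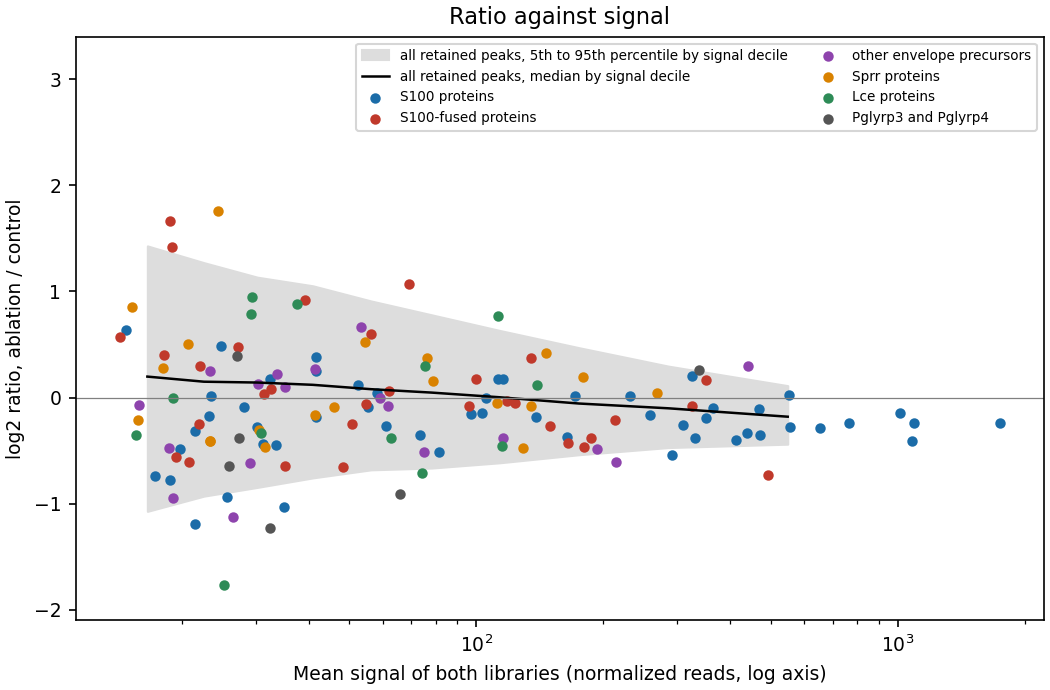
Log2 ratio of ablation to control against the mean signal of both libraries on a log axis. Points are the 142 retained peaks of the complex, coloured by gene group, the black line is the median of all retained peaks in each signal decile, and the grey band spans their 5th to 95th percentile. Strong peaks to the right are mostly S100 peaks and lie below 0, near the line.

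S100 genes held most of the open chromatin of the complex. Their 53 retained peaks took 65.5% of its control signal and had 386 normalized reads per kb of peak in control and 331 in ablation, the highest of the 6 groups. The summed signal was 14667 in control and 12573 in ablation, 0.857-fold (0.839 to 0.876), with 39 of 53 peaks below 0. On the log2 scale the sum stood at -0.22, and at -0.062 after a loess correction of the ratio for signal, which also put S100a1 at 0.028 and S100a16 at 0.074. It stayed below 0 under each scaling tried. Of 13 S100 genes with retained peaks 10 had log2 ratios below 0, with a median of -0.23 against -0.07 over all genes. Peak by peak, the median of the 53 S100 peaks was -0.19, at a median signal of 103. All retained peaks in the highest signal decile, with a median signal of 548, had a median of -0.18. Those in decile 7, with a median signal of 114, had a median of 0.002.

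S100a10, the partner of annexin A2, had the largest sum, 3667 normalized reads in control and 3129 in ablation over 10 peaks (0.853-fold, 0.817 to 0.891). These peaks lie up to 43.2 kb away, and the peak overlapping the gene held 1062 and 961. The rank of S100a10 thus rests in part on assignment to the nearest gene. S100a3, a hair cuticle protein, held 3201 and 2735 over 7 peaks (0.854-fold, 0.816 to 0.895). As annotated it spans 90560356 to 90602706, a stretch that also holds S100a2. Of its several RefSeq promoters only that at 90586702 to 90586951 lay under a peak. S100a11, a partner of annexin A1, held 2309 and 1913 (0.828-fold, 0.784 to 0.875). S100a10, S100a3 and S100a11 thus had nearly the same ratio, and S100a6, S100a4 and S100a14 lay beside them at 0.839-fold, 0.846-fold and 0.842-fold. S100a1 and S100a13 share 1 promoter peak, which held 378 and 353, and S100a16 stood at 0.963-fold (0.892 to 1.04).

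The 5 strongest peaks of the complex all belonged to S100 genes, and all 5 were lower in ablation. The first, 2016 bp over a promoter of S100a3 at 90585437 to 90587453, went from 1886 to 1602 normalized reads, or from 936 to 795 per kb. The S100a14 peak held 1183 and 1001, the S100a6 promoter peak 827 and 700, and the peak overlapping S100a10 1062 and 961. A distal peak 13.1 kb before S100a11, at 93505969 to 93507374, went from 1234 to 930 (0.753-fold, 0.697 to 0.814), the lowest ratio of the 5. The S100a11 promoter itself, printed above, went from 486 to 449 (0.925-fold, 0.822 to 1.04).

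The alarmins of the S100 group had far less signal, and their ratios lay above 1 with wide intervals. S100a8 and S100a9, which together form calprotectin and are induced in wounded epidermis, had few reads. The peak over the S100a8 promoter held 36.0 normalized reads in control and 47.2 in ablation, and that over the S100a9 promoter 11.3 and 18.1. By gene, S100a9 had the highest ratio of the group, 1.26-fold from 59 and 58 reads (0.864 to 1.85), and S100a8 stood at 1.07-fold (0.769 to 1.49). Both intervals include no change, as does that of S100a7a, a relative of psoriasin, at 1.02-fold (0.781 to 1.32). The intervals of S100a8 and S100a7a also include the 0.857-fold of the whole group, so a difference from it is not shown. With no filter S100a8 stood at -0.043 on the log2 scale. All 3 genes lay below 1 when scaled to reads over the whole table.

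S100a7l2 was lowest of the group, its 5 peaks holding 227 normalized reads in control and 161 in ablation (0.709-fold, 0.587 to 0.854). Its peaks lie between 29.6 and 176.1 kb away, so the gene serves mainly as their nearest landmark. They adjoin those of Pglyrp4, which encodes a bactericidal peptidoglycan recognition protein. Pglyrp4 held 195 and 108 normalized reads over 4 peaks (0.554-fold, 0.443 to 0.689), of which 3 lie between 9.52 and 120.8 kb away. The peak in the gene went from 31.1 to 23.6 (0.759-fold, 0.449 to 1.26). With genes of any type as possible neighbours, the log2 ratio of Pglyrp4 was -0.38 in place of -0.85. Between 90.7 and 91.3 Mb, a stretch chosen after its values were seen, 8 of 10 retained peaks lay below 0, and the sum went from 452 to 303 (0.671-fold, 0.586 to 0.767). These peaks are weak, with a median signal of 32.4. At 90753522 to 90754156, 12.0 kb from Pglyrp4, signal went from 45.9 to 19.0 (65 and 21 reads, 0.415-fold, 0.241 to 0.688). At 91058137 to 91058494 it went from 47.3 to 22.7 (67 and 25 reads, 0.480-fold, 0.290 to 0.770). Pglyrp3, the paralog beyond the large gap, stood on the other side of 1, from 331 normalized reads in control to 398 in ablation (1.2-fold, 1.05 to 1.37). Most of it lay in a peak 0.505 kb from the gene that went from 308 to 367. Scaled to reads over the whole table, Pglyrp3 too lay below 1.

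S100-fused genes had ratios on both sides. Their 32 retained peaks summed to 3447 normalized reads in control and 3143 in ablation (0.912-fold, 0.873 to 0.952), with 213 and 194 per kb. Cornulin (Crnn), a protein of differentiating squamous epithelium, was lowest at 0.790-fold (0.739 to 0.845), with 1601 and 1265 over 9 peaks. The peak over its promoter, whose sequence is printed above, stood apart from the other peaks assigned to the gene. It held 613 normalized reads in control and 369 in ablation, from 869 and 407 reads (0.602-fold, 0.534 to 0.678). Per kb it was the second highest of the complex in control, at 913, and stood at 549 in ablation. The other 8 Crnn peaks lie between 9.56 and 29.9 kb away and were assigned to Crnn as the nearest gene. They had log2 ratios between -0.38 and 0.57, so none was as low as the promoter.

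Repetin (Rptn), an envelope protein, was the highest of the group, from 116 to 214 normalized reads (1.85-fold, 1.51 to 2.27). All 3 of its retained peaks were higher. They lie upstream of the gene, 25.9, 12.1 and 7.75 kb from it. The one at 25.9 kb went from 44.5 to 68.0 and the one at 12.1 kb from 26.8 to 51.7. The nearest, at 93385453 to 93385953, went from 44.5 to 94.3 normalized reads (63 and 104 reads, 2.12-fold, 1.54 to 2.95). The Rptn promoter itself lay under no peak.

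Trichohyalin (Tchh), which hardens the inner root sheath of hair, had 702 and 756 normalized reads over 7 peaks (1.08-fold, 0.981 to 1.18), a sum that lay below 1 when scaled to reads over the whole table. Beside its strong gene-body peak, which went from 330 to 371, a pair of weak peaks were at least 2-fold higher, at 93431744 to 93431958 from 12 to 32 reads (3.43-fold, 1.72 to 7.31) and at 93443763 to 93443928 from 14 to 31 reads (2.85-fold, 1.47 to 5.79). Both weak peaks were retained only through their ablation signal. Hornerin (Hrnr), a filaggrin relative, stood at 0.941-fold (0.834 to 1.06), with 461 and 434 over 7 peaks, none over its promoter. Tchhl1 stood at 0.823-fold (0.717 to 0.943) and Flg2 at 0.858-fold (0.705 to 1.04). Flg had no peak assigned.

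The other envelope precursors held 1550 normalized reads in control and 1422 in ablation (0.917-fold, 0.859 to 0.979). With peaks within 5 kb alone the sum of this group lay above 1, so its direction rests on distant peaks. Loricrin (Lor), the main protein of the envelope, had 752 and 749 over 3 peaks (0.996-fold, 0.908 to 1.09), which hides peaks that differ. The peak in the gene body went from 395 to 487 normalized reads, whereas those 9.90 and 7.65 kb away went from 226 to 161 and from 131 to 101. Involucrin (Ivl), an early scaffold of the envelope, held 216 and 176 over 4 peaks (0.815-fold, 0.677 to 0.979). Its promoter peak went from 88.2 to 61.7 (125 and 68 reads, 0.699-fold, 0.513 to 0.947), and the peak in its gene body from 28.9 to 31.7.

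Lelp1, a proline-rich relative of the Lce proteins, had 435 and 331 normalized reads over 6 peaks (0.762-fold, 0.667 to 0.868). Its strongest peak, 26.9 kb away, went from 258 to 170, and that at 92130093 to 92130528 from 36.7 to 16.3 (52 and 18 reads, 0.445-fold, 0.245 to 0.773). Kprp, a keratinocyte proline-rich protein, stood at 0.945-fold (0.733 to 1.22), with 107 and 101. Crct1, a cysteine-rich protein encoded beside the Lce genes, was the highest of the group from 1 peak in the gene body, from 40.9 to 65.3 (58 and 72 reads, 1.60-fold, 1.11 to 2.3).

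Sprr genes encode small proline-rich proteins that crossbridge the envelope. Their 20 retained peaks summed to 1431 normalized reads in control and 1507 in ablation (1.05-fold, 0.987 to 1.12), with 10 above 0 and 10 below. On the log2 scale the sum stood at 0.07, and at -0.27 when scaled to reads over the whole table. The Sprr1, Sprr3 and Sprr4 genes lie at the end of the cluster towards Ivl, and each held more signal than any Sprr2 gene. Sprr1b held 244 and 316 normalized reads over 3 peaks (1.29-fold, 1.11 to 1.5), and all 3 were higher. Its promoter peak, over the sequence printed above, went from 44.5 to 64.4 (63 and 71 reads, 1.45-fold, 1.02 to 2.07), and a peak 1.52 kb from the gene went from 125 to 168. Sprr3 held 114 and 164 over 4 peaks (1.44-fold, 1.16 to 1.79) and had the highest log2 ratio of any retained peak of the complex. That peak, at 92455007 to 92455469 and 1.03 kb from the gene, went from 10.6 to 38.1 normalized reads (15 and 42 reads, 3.60-fold, 1.96 to 6.99).

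Sprr1a, whose promoter has a pair of AP-1 matches, stood at 1.03-fold (0.880 to 1.2), with 265 and 272 in 1 peak over the promoter. Sprr4 held 663 and 626 over 7 peaks, all outside the gene (0.943-fold, 0.854 to 1.04). Of the 10 Sprr2 genes 5 had a retained peak, 1 each, with 40 to 116 reads in both libraries together, and their intervals all include no change. Sprr2a3 was the highest of them at 1.45-fold and Sprr2b the lowest at 0.717-fold (0.439 to 1.15). Sprr2 genes are close copies of each other, as are Lce genes, and how reads with more than 1 placement were treated is not given in the sources used here. Their values, and the lack of peaks at other copies, are uncertain for that reason.

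Lce genes encode the late envelope proteins, made in the outermost living layers. Only 13 peaks were retained for 21 genes, summing to 760 normalized reads in control and 775 in ablation (1.02-fold, 0.931 to 1.12), and with -0.31 on the log2 scale when scaled to reads over the whole table. Of 14 Lce1 genes 4 had a retained peak, of 6 Lce3 genes 3, and Lce6a had 2 peaks. The genes spread more widely than in the S100 group, from -1.77 to 0.95 on the log2 scale, against -0.49 to 0.33. Depth differs too, since 5 of the 8 genes rest on 1 peak, and the S100 genes have up to 8647 reads in both libraries together.

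Lce1l had the lowest ratio of all members, from 1 peak at 92855661 to 92855999, 4.38 kb from the gene. Signal there went from 39.5 to 10.9 normalized reads (56 and 12 reads, 0.275-fold, 0.134 to 0.520). It was the only member past 2-fold as a gene, so 1 of 43 was lower, against 0.468% of all genes, and 0 were higher, against 1.25%. Lce3a lay just inside at 1.97-fold (1.2 to 3.3), from 28 and 43 reads in a peak 6.74 kb away, and lay past 2-fold, at 1.04 on the log2 scale, when scaled to reads in nuclear peaks. Lce1k, with a peak at 92814546 to 92815370 that lies between it and Kprp, went from 83.3 to 142 normalized reads (118 and 157 reads, 1.71-fold, 1.34 to 2.19).

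Lce1m held 231 and 249 over 3 peaks (1.07-fold, 0.911 to 1.26). Lce6a held 226 and 153 (0.679-fold, 0.560 to 0.820), and both of its peaks were lower, the promoter peak from 92.4 to 56.2. Lce1b stood at 1.23-fold (0.915 to 1.66), Lce3f at 1.21-fold (0.873 to 1.67) and Lce3c at 0.787-fold (0.482 to 1.26), and each interval includes no change. In the stretch from 92.9 to 93.1 Mb, chosen after its values were seen and holding the Lce3 genes, Crct1 and Lce1m, the sum went from 397 to 469 normalized reads (1.18-fold, 1.05 to 1.33), with 6 of 10 retained peaks above 0.

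**Figure D3:**
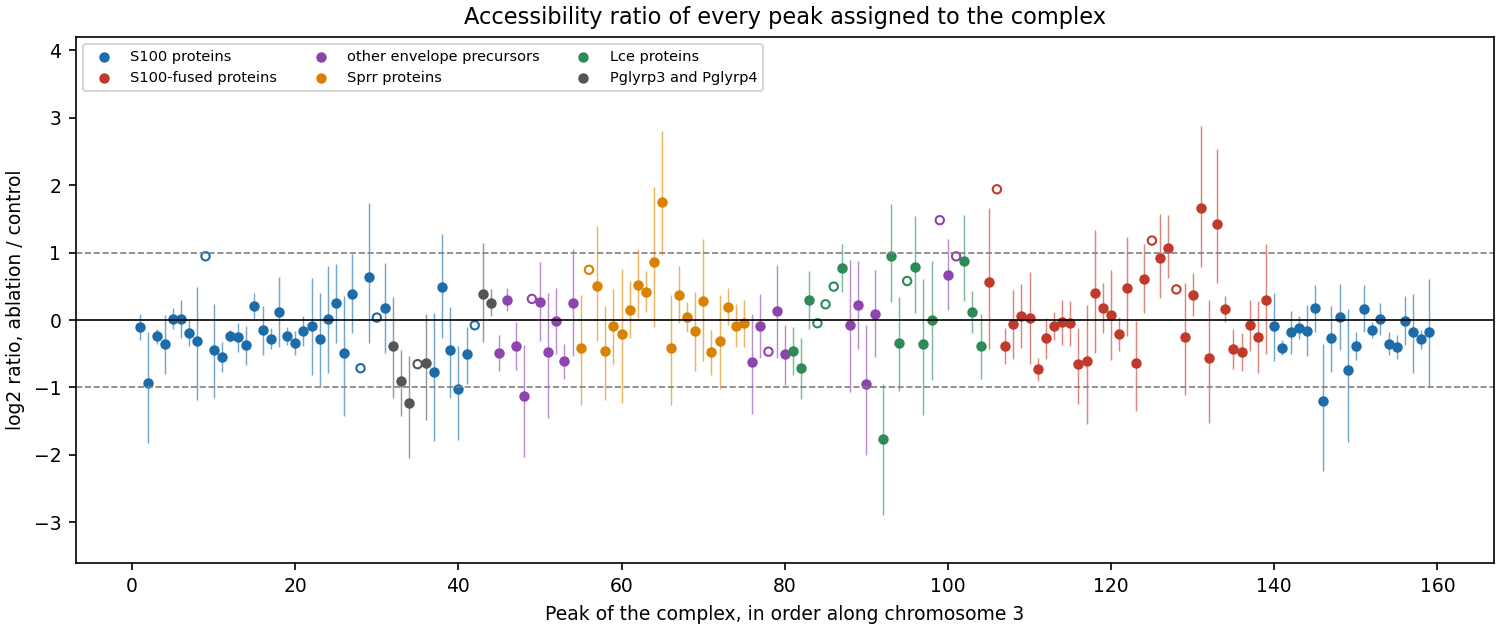
Log2 ratio of ablation to control for all 159 peaks of the complex in their order along the chromosome, coloured by gene group. Filled points are retained peaks with 95% counting intervals as bars, open points lie below the signal minimum, and dashed lines mark 2-fold. The S100 peaks at both ends lie mostly just below 0, the Pglyrp4 and S100a7l2 peaks form a low stretch, and the filled points past 2-fold higher belong to Sprr3, Rptn and Tchh. The highest open points belong to Crnn at 1.94 (7 and 24 reads) and Crct1 at 1.48 (6 and 15 reads).

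By gene, 7 members had counting intervals wholly above 1, namely Pglyrp3, Sprr1b, Sprr3, Lce1k, Lce3a, Crct1 and Rptn, where 14.6% of all 16459 genes did. Another 14 lay wholly below 1, where 32.2% of all genes did, and 7 of them were S100 genes. Both shares of the 43 genes are near those of all genes. Scaled to reads over the whole table, the log2 ratios of Pglyrp3, Sprr1b and Sprr3 were -0.073, 0.03 and 0.18. The remaining 22 intervals include 1. An interval that leaves out 1 says that counting error is smaller than the difference, not that another pair of animals would differ in the same way.

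**Figure D4:**
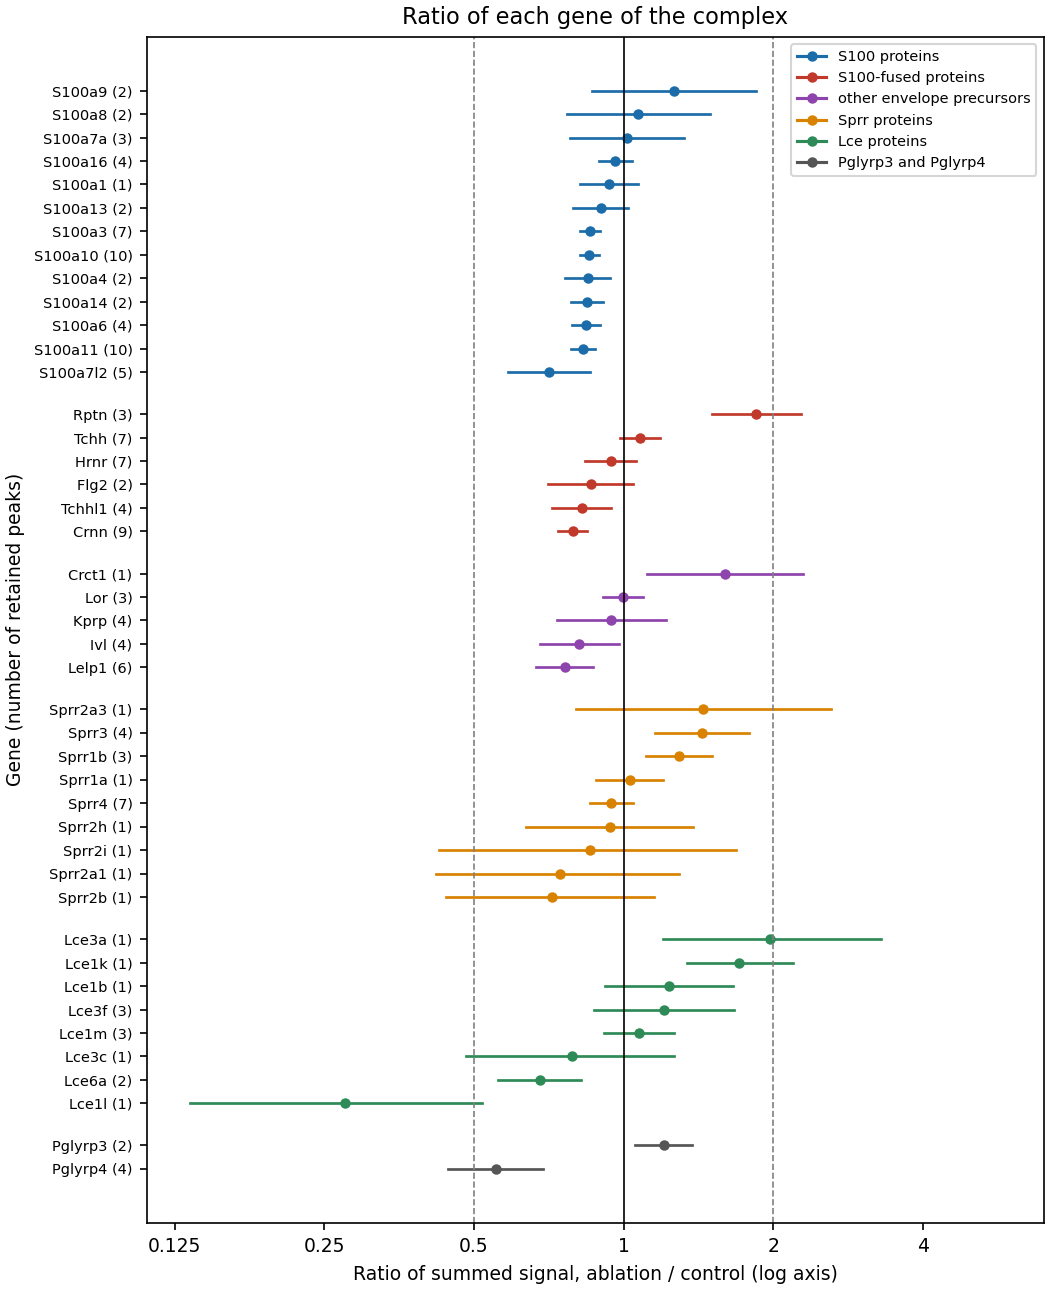
Ratio of summed signal, ablation over control, for the 43 genes with a retained peak, on a log axis, with the number of retained peaks in brackets. Points are ratios and bars 95% counting intervals, coloured by gene group, with dashed lines at 0.5 and 2. The S100 genes with many peaks have short bars just below 1, and Lce1l alone has its point left of 0.5.

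The place of a peak in the table went with its direction. The table runs through the peak names in order 3 times, which divides the retained peaks into blocks, and what the blocks stand for is not stated. In the first block 90.8% of all retained peaks were above 0, and all 9 peaks of the complex were. In the second 18.4% were, and 0 of 12 peaks of the complex. Of the 4 peaks at least 2-fold higher, 3 were in the first block (those of Sprr3 and Tchh), where 31.2% of all retained peaks were, and 0 were lower, against 0.0349%. Of the 5 lower ones, 1 (1.56 kb from S100a11, 43 and 14 reads) was in the second, where 16.1% were, and 0 were higher there, against 0.264%. In the third block, with 121 peaks of the complex, the Rptn peak was at least 2-fold higher and 4 peaks were lower, against 2.44% and 1.06% of all retained peaks.

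By position, 51.4% of the retained peaks of the complex lay beyond 5 kb of any protein-coding gene, against 32.7% of all retained peaks. Another 18.3% lay in gene bodies, against 46.5%, and 12.0% over promoters, against 13.3%. A peak could count as over a promoter only where a RefSeq promoter was matched to the gene. S100a10 and S100a14 had none, so the strong peaks that overlap them were counted in gene bodies. Median log2 ratios of the complex were -0.11 over promoters, -0.15 in gene bodies, -0.20 within 5 kb and -0.09 beyond. Of the 4 places, peaks within 5 kb outside a gene lay lowest, with 26 peaks.

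Genes that act on the complex from elsewhere in the genome were mostly below 0 too. Of 24 regulators of keratinocyte differentiation 22 had log2 ratios below 0, with a median of -0.12, and 0 passed 2-fold. Of all genes 10142 of 16459 lay below 0. The regulators had a median summed signal of 2431 normalized reads in control. Over all retained peaks the ratio falls with signal, with medians of -0.10 and -0.18 in the 2 highest deciles. These deciles are of single peaks, whereas the sum of a gene takes in up to 93 of them (Gata3). They thus do not give the ratio of other genes with such a sum. Neither the regulators nor the barrier genes below were set against genes of like signal. Among the lowest was Ovol1, a transcription factor of epidermal differentiation, at -0.36, and the highest was the histone methyltransferase Kmt2d at 0.29. Trp63, the master regulator of the basal state, stood at -0.05. Of 18 envelope and barrier genes outside the complex 15 lay below 0, with a median of -0.29, and 0 passed 2-fold. Over all genes 1.25% were at least 2-fold higher and 0.468% at least 2-fold lower, so 0 in lists this short says little. The protease Asprv1, which processes filaggrin, was highest at 0.38 and the desquamation protease Klk7 next at 0.23. The suprabasal genes Krt2 and Sbsn were lowest at -0.40 and -0.39.

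Markers of the sorted cells and of others were read from the same peaks. All 7 basal keratinocyte markers had retained peaks, with a summed signal of 16900 in control and 16080 in ablation and 3 of 7 genes higher. The 4 spinous markers summed to 4553 and 3533, all lower in ablation, and all 4 are also among the 18 barrier genes. Bulge markers summed to 4844 and 6139 (3 of 3 higher), upper follicle and sebaceous markers to 4103 and 4598 (3 of 3 higher), endothelial markers to 3245 and 3239 (2 of 4 higher), melanocyte markers to 3189 and 2851 (0 of 3), T cell markers to 2220 and 2107 (1 of 2), fibroblast markers to 1105 and 1070 (1 of 3), and Langerhans and myeloid markers to 815 and 753 (4 of 5). In those sums Itgam alone of the myeloid genes was lower, and the macrophage receptor gene Csf1r stood at 2.1-fold (1.15 to 3.93) from 19 and 31 reads in 1 peak. The endothelial receptor gene Tie1 stood at 2.36-fold (1.89 to 2.95) from 127 and 233. Of the other endothelial genes, Pecam1 and Cdh5 stood at 0.957-fold and 0.947-fold, and Kdr at 1.17-fold (0.845 to 1.63). Over all genes 1.25% were at least 2-fold higher. The sums rest on unlike numbers of genes and peaks, so their sizes cannot be compared between cell types. Single genes held most of some of them in control: Pecam1 2645 of the endothelial sum, Thy1 2022 of the T cell sum and Sox9 4166 of the bulge sum. Kdr, Cd3e and Lgr5 of the same lists held 57.2, 198 and 41.6. Open chromatin at a gene does not show that the gene is expressed. Col1a2, Lyz2, Tyr, Cd3g and Trac had no retained peak. The genes of the 2 markers by which cells were left out of the gate are in these lists. Cd34 held 636 and 800 normalized reads (1.26-fold, 1.15 to 1.38) and Lrig1 2046 and 2443 (1.19-fold, 1.13 to 1.26). The part of other cells in the values of the complex was not tested.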

How the data were processed

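ATAC-seq libraries of 1 control and 1 ablation sample were compared in mouse build mm10. The submitters' processing notes list HTSeq, MACS2 2.1.0.20151222, Picard, Trimmomatic and Bowtie2 2.3.4.2, without roles or settings. The authors deposited a normalized signal per peak and library. Every value was a whole multiple of 1 step per library, within 0.1 of a read, so whole reads were recovered (100% of values). The method behind the factors is not stated. Column names differ from sample titles (number 2 in the control column, Exp in place of Abl), so each column was matched as the only control or the only other sample. Columns left unused numbered 0.

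The 116411 rows held 84594 distinct peaks, 3 of them mitochondrial and left out. Reads in nuclear peaks were 17056996 in control and 12463908 in ablation. Whether starts count from 0 or 1 is not stated. Peaks were given to every RefSeq protein-coding gene (GRCm38.p6) they overlap, or else to the nearest. Log2 ratios used a pseudocount of 1, and folds are ratios of summed signal without it. Named were the 3 genes of highest signal and the highest and lowest ratios of each of 6 groups, the single-gene families, the 5 strongest peaks and all peaks past 2-fold, and of each outside list the 2 highest and 2 lowest, of which some regulators are not reported here. Sprr2a3, Flg2, Tchhl1 and other genes named beside these are given to account for all members. The members, lists and stretches were chosen with earlier results of these data known. The steps were tested on simulated reads. Calculations ran in Python 3.11.15 with scipy 1.17.1, pandas 2.3.3 and numpy 2.4.6, smoothing in statsmodels 0.14.6, and plots in matplotlib 3.10.9. Alternatives covered the pseudocount, filter, scaling, fold threshold, assignment, table blocks and the value of a gene.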

Additional observations from a re-analysis of the deposited data

Results flagged for a closer look

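The 17 peaks of the complex below the signal minimum, which no ratio above uses, held 203 reads in control and 220 in ablation, a summed signal 1.39-fold higher in ablation (1.15 to 1.69). They lie outside the comparisons and above the control level, and 12 of the 17 were above 0, where 55.3% of all 8444 nuclear peaks below the minimum were. All 8444 together summed to a signal 1.13-fold higher in ablation. At least 2-fold higher were 3 of the 17 and lower 0, against 21.1% and 12.9% of all. Of the 17, 8 lie in the first block of the table and 8 in the second. All 3 higher peaks lie in the first block, where 42.0% of all peaks below the minimum were at least 2-fold higher. Mitochondrial DNA, also outside the comparisons, took 31.2% of all reads in peaks in ablation against 7.31% in control.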

How the results depend on the processing

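No paired analysis was possible because the labels share only 1 replicate number and each group has 1 library. With 1 library per group nothing could be left out either, and weak peaks with few reads limit most 2-fold calls. Dividing each library by its reads over the whole table, mitochondrial reads included, shifts the median of all peaks by -0.33. It gave 12 lower peaks in place of 5, medians of -0.47 (peaks) and -0.43 (genes), and group log2 ratios of -0.56 (S100), -0.47 (S100-fused), -0.46 (other envelope precursors), -0.27 (Sprr), -0.31 (Lce) and -0.39 (Pglyrp), and 9 of 43 genes changed sign (S100a7a, S100a8, S100a9, Pglyrp3, Tchh, Sprr1a, Lce1b, Lce1m and Lce3f). Dividing by reads in nuclear peaks shifts all peaks by 0.09 and gave a peak median of -0.038, S100 at -0.13 and S100-fused at -0.043, with 6 genes changing sign. A loess correction on signal left S100 at -0.062, against -0.22 as reported, and 5 genes changed sign. Counts of higher peaks, 4 as reported, were 7 with no filter, 2 with the filter at the 25th percentile, 2 within 5 kb, 1 in the largest block alone and 13 at a 1.5-fold threshold. Counts of lower peaks, 5 as reported, were 2 with a pseudocount of 5, 3 with genes of any type, 3 within 5 kb and 18 at 1.5-fold. Peaks within 5 kb alone gave S100 -0.18, S100-fused -0.35, other envelope precursors 0.13, Lce -0.29 and Pglyrp 0.22, against -0.13, -0.12, 0.03 and -0.05 as reported for the last 4, and genes of any type gave Pglyrp 0.22. Both Pglyrp values leave out the distant peaks beside Pglyrp4. Lce1l stayed below 0 in all settings.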

Other observations

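The 34 other peaks of the window belong to 12 genes between or beside the members. Their 30 retained peaks summed to 5321 normalized reads in control and 4851 in ablation (0.912-fold, 0.880 to 0.944), with a median log2 ratio of -0.10 against -0.13 for the complex. The fatty acid transporter Slc27a3 in the window was highest at 0.33, and Tdpoz2, between S100a10 and the end of the window, lowest at -0.41, from 1 peak with 45 and 26 reads. Smcp, a sperm mitochondrial protein gene between Ivl and Lce6a, stood at -0.31, and Prr9, between Lor and Lelp1, at -0.03.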
